A study of Mus musculus with 2 samples.

Results

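The genes described here are 10 that mark resident macrophages of tissues, chosen by name as scavenger receptors, lectins and genes found with them: Lyve1, Timd4, Folr2, Cd163, Fcna, Cd209f, Cd209d, Cd209b, Klkb1 and Ednrb. They are 10 of the 24765 genes listed for the NW library and of the 25447 listed for the ABX library. CD45+ cells, that is, leukocytes, were taken with magnetic beads from visceral (epididymal) white adipose tissue (VAT) of 15-week-old wild-type C57BL/6 mice. One group drank normal water (NW) and the other received antibiotics (ABX), which deplete the gut microbiota; both groups were alike in strain, age and tissue. Elsewhere in the study mice drank ampicillin, vancomycin, streptomycin and colistin, mixed or singly, and which of these the ABX library received is not given in the sources used here. Each condition is 1 library of the BD Rhapsody whole transcriptome assay, which captures a cell in a microwell with a barcoded bead and counts its mRNA molecules by unique molecular identifiers (UMIs), and the number of mice behind a library is not given in the sources used here. Since neither condition has a second library, the spread between mice is unknown, and differences between NW and ABX are given without tests, with intervals that cover counting error only.

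Macrophages that reside in a tissue take up dead cells, lipoproteins, haemoglobin and matrix fragments through scavenger receptors, and bind sugars on microbes and on the body's own glycoproteins through lectins. In adipose tissue, macrophages that lie along vessels are known for LYVE1, folate receptor beta and CD163, whereas macrophages that derive from recruited monocytes carry more CCR2 or MHC class II. The present comparison asks how the levels of these genes were spread over the myeloid cells of VAT, and how they differed after antibiotics.

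After removal of barcodes with fewer than 500 UMIs, fewer than 200 genes or more than 25% mitochondrial UMIs, 12474 of 17662 NW and 12724 of 17785 ABX barcodes remained, from totals of 79855126 and 64801767 UMIs, and the median cell had 5092 UMIs in NW and 3845.5 in ABX. Cells were clustered without the 10 genes, so that none of them could set the groups. Macrophage-like cells numbered 5788 in NW (46.4% of cells) and 5032 in ABX (39.5%), the median cell holding 5641 and 4077 UMIs. A level is given as CPM, the summed UMIs of a gene in a group of cells per 1000000 UMIs of all genes in the same cells. None of the 12 macrophage markers used for the naming was at 0 in these cells, and their summed level was 32828 CPM in NW and 31305 in ABX. The libraries shared 371 of their barcodes, against 355 given a random draw from the 884736 possible barcodes.

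Macrophage-like cells held most of the UMIs of the 10 genes, 88.7% in NW and 83.7% in ABX. Since the UMI counts one captured end of each molecule, no length correction applies, but capture may differ between genes, and levels are compared for the same gene between groups of cells. The share found in macrophage-like cells lay between 82.8% and 91.3% for 8 of the 10 genes. The exceptions were Timd4, with 67.6% in NW and 48.6% in ABX, and Klkb1, with 74.4% and 38.2%.

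**Figure D1:**
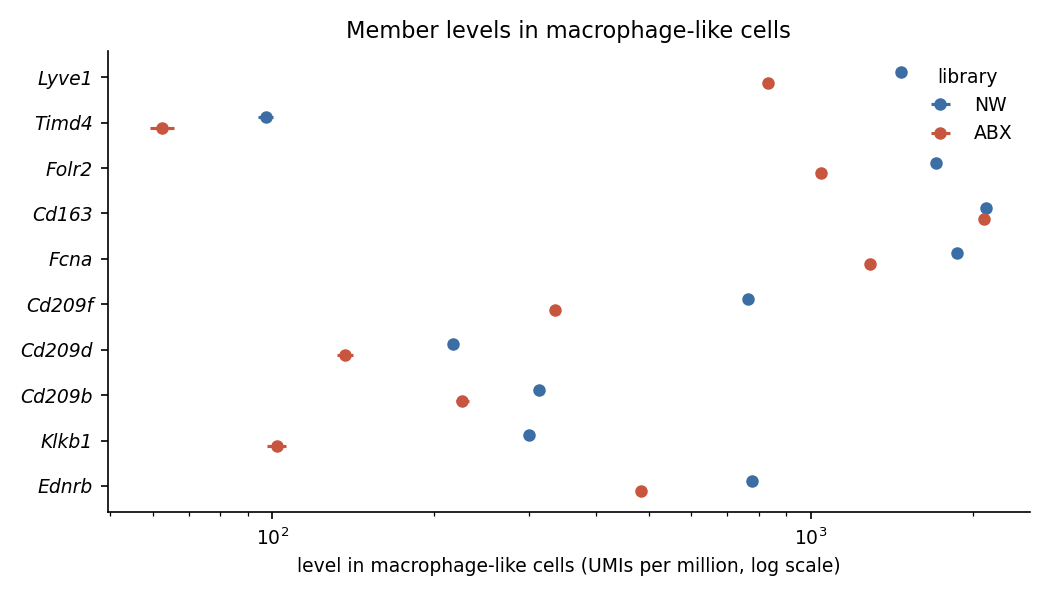
Level of each of the 10 genes in macrophage-like cells (x axis, CPM, log scale) in the NW library (blue) and the ABX library (red); bars are exact 95% Poisson intervals, hidden by the points where narrow. Cd163 lies at nearly the same level in both libraries, and each of the other 9 genes lies lower in ABX.

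Lyve1, the hyaluronan receptor of perivascular macrophages and lymphatic endothelium, had a level of 1472 CPM (95% counting interval 1459 to 1484) in macrophage-like cells of NW and 833 (822 to 845) in those of ABX. The log2 ratio of ABX over NW was -0.82 (-0.84 to -0.80). Folr2, folate receptor beta, had a level of 1712 in NW and 1047 in ABX, a log2 ratio of -0.71 (-0.73 to -0.69). Both genes were thus lower in the ABX library by more than 1.5-fold.

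Timd4, a receptor for phosphatidylserine on dying cells, had a level of 97.2 in NW and 62.4 in ABX, a log2 ratio of -0.64 (-0.73 to -0.55). Ednrb, endothelin receptor B, had a level of 776 in NW and 484 in ABX, a log2 ratio of -0.68 (-0.71 to -0.65). Fcna, ficolin A, a secreted lectin that starts the lectin pathway of complement, had a level of 1866 in NW and 1290 in ABX. Its log2 ratio of -0.53 (-0.55 to -0.51) did not reach 1.5-fold.

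Cd163, the scavenger receptor for haemoglobin bound to haptoglobin, had a level of 2118 (2103 to 2133) in NW and 2097 (2078 to 2116) in ABX. The log2 ratio was -0.01 (-0.03 to 0.00), and the interval held 0, though with the other scalings tried it was -0.09 with an interval below 0. Cd163 was thereby unlike the other 9 genes, whose intervals all lay below 0.

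Among the lectins of the CD209 family, Cd209f had a level of 766 in NW and 335 in ABX, a log2 ratio of -1.19 (-1.23 to -1.16). Cd209d had 217 in NW and 136 in ABX, a log2 ratio of -0.67 (-0.73 to -0.61). Cd209b, a receptor for microbial polysaccharides that is also found on marginal zone macrophages of the spleen, had 313 in NW and 225 in ABX, a log2 ratio of -0.48 (-0.52 to -0.43). All 3 were lower in ABX, Cd209f by 2.29-fold and Cd209b by 1.39-fold.

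In all, 7 of the 10 genes were at least 1.5-fold lower in ABX and none was at least 1.5-fold higher. Among the 11161 genes with at least 100 UMIs in macrophage-like cells, 1.56% were at least 1.5-fold lower and 5.0% at least 1.5-fold higher. The median log2 ratio was -0.67 over the 10 genes and 0.02 over all 11161. The 10 genes were chosen with earlier results of these data known, so these counts describe them and do not test them. The seventh gene, Klkb1, passed because of a few cells, as described further on.

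The 3 members of the CD209 family lie with 4 other members in a cluster of 7 genes on mouse chromosome 8. In GRCm38 the cluster spans chr8:3743397-4137707, a stretch of 394 kb, and all of its genes are annotated as protein coding. Cd209g, which is not one of the 10 genes, lies near Cd209f on the opposite strand and had a level of 190 in NW and 95.4 in ABX, with the interval of the log2 ratio from -1.07 to -0.93. Cd209a, the homologue best known from dendritic cells, had 132 in NW and 112 in ABX, a log2 ratio of -0.24 (-0.31 to -0.17). Within the cluster, the genes past 1.5-fold lower were thus Cd209f, Cd209g and Cd209d, and Cd209c and Cd209e, at 9.93 and 11.7 in NW, had log2 ratios of -0.13 and -0.25.

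Cd209f and Cd209g are close copies. Of the 50-base stretches in the annotated transcripts of Cd209f, 29.8% also occur in transcripts of Cd209g, and 37.1% of those in the last 500 bases do. For Cd209g, 16.6% of its stretches occur in Cd209f, but none of those in its last 500 bases do. How the counting pipeline assigned reads that match both is not given in the sources used here, so the split of UMIs between Cd209f and Cd209g is uncertain. Transcripts of Cd209d and Cd209b shared no such stretch with any other gene. The promoter windows of Cd209f and Cd209g, from 250 bases before to 50 bases after the start of transcription, are shown from the RefSeq table for GRCm38.p6, since both genes were among the most different between the libraries. Cd209f is at chr8:4105715-4106014 on the minus strand and Cd209g at chr8:4134486-4134785 on the plus strand, each is written 5′ to 3′ along its own gene, and capitals mark the longest identical run, of 180 bases.
Cd209f: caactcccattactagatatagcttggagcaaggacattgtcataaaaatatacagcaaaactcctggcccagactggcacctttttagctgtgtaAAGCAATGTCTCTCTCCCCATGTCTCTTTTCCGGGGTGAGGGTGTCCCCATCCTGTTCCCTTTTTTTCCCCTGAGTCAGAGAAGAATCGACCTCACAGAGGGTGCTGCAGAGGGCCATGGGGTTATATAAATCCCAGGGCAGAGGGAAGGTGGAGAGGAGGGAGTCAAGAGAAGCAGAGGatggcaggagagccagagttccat
Cd209g: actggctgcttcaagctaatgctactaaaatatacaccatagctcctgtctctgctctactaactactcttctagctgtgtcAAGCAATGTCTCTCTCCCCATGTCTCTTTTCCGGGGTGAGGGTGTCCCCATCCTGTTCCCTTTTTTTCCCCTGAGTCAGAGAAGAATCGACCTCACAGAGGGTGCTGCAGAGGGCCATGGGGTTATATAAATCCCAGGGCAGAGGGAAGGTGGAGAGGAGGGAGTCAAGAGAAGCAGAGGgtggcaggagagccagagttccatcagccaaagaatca

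From the start of that run, 203 of 204 aligned bases are identical. The run holds 1 match to TGAGTCA, the motif of AP-1 factors, and 5.20% of the 32851 promoter windows in the table hold this motif on either strand. One of the windows of Folr2 held it too. TGCTGA, a half-site of MAF factors, was found in the windows of Timd4, Folr2, Fcna, Cd209d and Ednrb and occurs in 19.5% of all windows. GAGGAA, a core of PU.1 sites, was found in the windows of Fcna and Cd209d and occurs in 28.3% of all windows. These are counts of letters, searched on both strands, and do not show binding. The table held windows for 9 of the 10 genes, 2 of them for Folr2, and none for Lyve1. The window of Fcna, at chr2:25627925-25628224 on the minus strand, held 4 matches to GAGGAA and 2 to TGCTGA, which are in capitals and shown because no other of the 10 genes held as many.
Fcna: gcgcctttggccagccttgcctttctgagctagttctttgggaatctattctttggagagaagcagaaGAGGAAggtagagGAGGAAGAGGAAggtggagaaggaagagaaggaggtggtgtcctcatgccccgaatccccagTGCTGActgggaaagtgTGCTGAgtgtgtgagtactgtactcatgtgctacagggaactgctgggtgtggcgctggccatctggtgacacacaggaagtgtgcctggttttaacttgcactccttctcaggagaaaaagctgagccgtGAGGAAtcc

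The other genes lie apart from each other. In GENCODE M21 for GRCm38, Lyve1 spans chr7:110850607-110863239 and Folr2 spans chr7:101839988-101857194, both on the minus strand. Timd4 spans chr11:46810800-46844332 and Cd163 spans chr6:124304656-124330527, both on the plus strand. Fcna spans chr2:25624666-25628030, Klkb1 spans chr8:45266689-45294859 and Ednrb spans chr14:103814625-103844402, all on the minus strand. Folr2 overlaps the antisense genes Gm10602 and Gm45319, and Fcna overlaps Fcnaos. Whether the counting used strand is not given in the sources used here, so reads from these partners cannot be told apart from those of Folr2 and Fcna.

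Macrophage-like, monocyte-like and dendritic cell (DC) clusters were then clustered again, which gave 15 states of at least 20 cells with 14957 cells in all. Of these, 8 carried the macrophage name. They are called here by their leading genes that are not among the 10: a state led by Retnla (1242 NW and 1214 ABX cells), one led by Cd93 (1224 and 1023), one led by Vcam1 (1091 and 879), one led by Gm10837 (1133 and 791), one led by Cd4 and Ccl8 (743 and 791), one led by Ccl12 and Il1b (91 and 119), one led by Il1a (47 and 42) and one led by interferon-induced genes such as Ifit2 (19 and 16). A state called Itgax-led here (769 and 539) had as leading genes, in order, Gm26917, Igkc, Itgax and Ighm, of which Igkc and Ighm are B-lineage genes. Its median cell held 3057 UMIs in NW and 1799 in ABX. It had 5 of 8 markers of lipid-associated macrophages and stayed unnamed. A state led by Prg4 and Alox15 (15 and 17) had 7 of 7 markers of large peritoneal macrophages and stayed unnamed too. The remaining states were monocyte-like (47 and 47), cDC2-like (420 and 343), mature DC-like (178 and 77), cDC1-like (1145 and 844) and cDC1-like with few UMIs (22 and 29). Antibody counts entered this clustering beside RNA. In NW the median counts of the antibodies to CD69 and CD8b were 18 and 23 in the Gm10837-led state, but 3 and 6 in the Cd93-led state. Cd93 and C1qtnf1 were leading genes of both the Cd93-led and the Vcam1-led state. The part of antibody counts in setting these states apart was not tested.

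**Figure D2:**
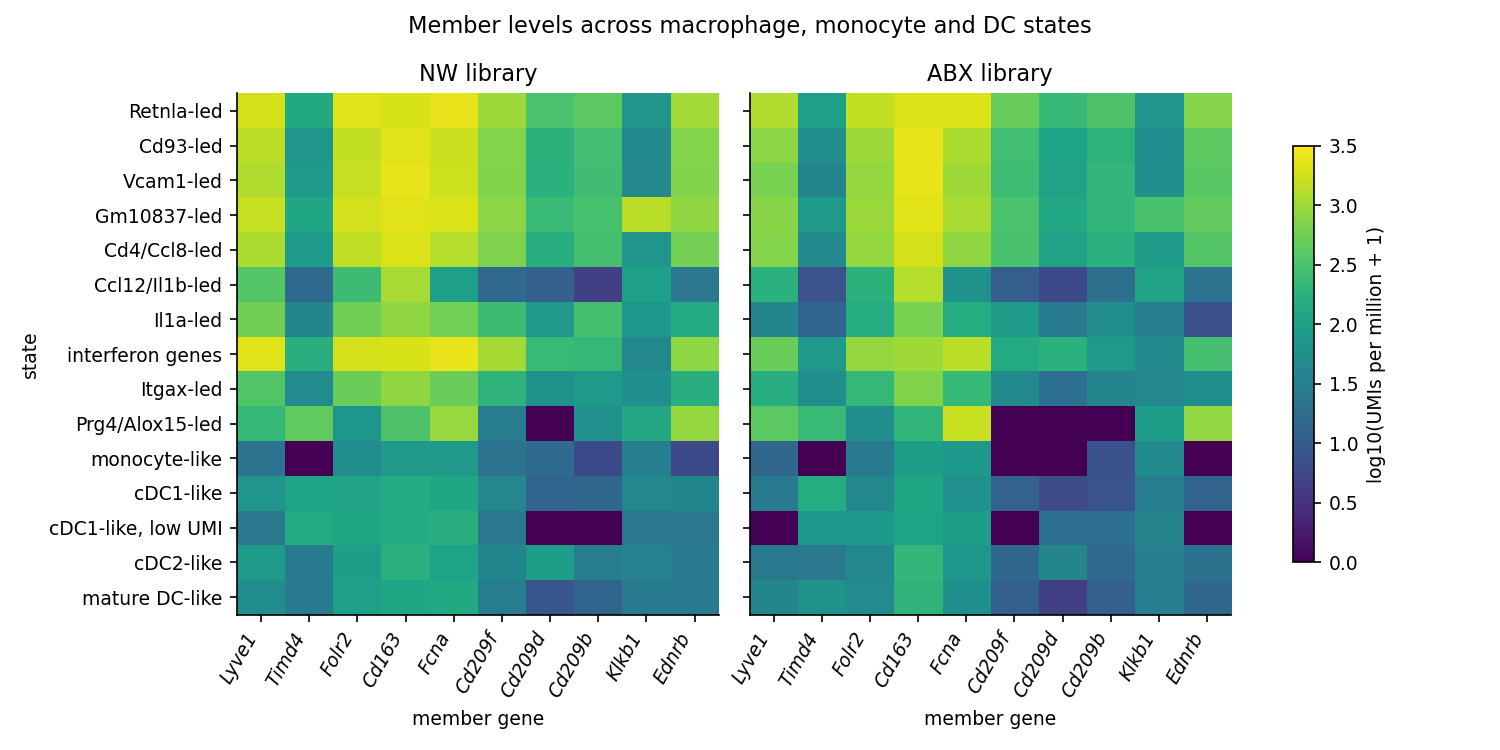
Level of the 10 genes (columns) in 15 macrophage, monocyte and DC states (rows) of the NW library (left) and the ABX library (right), as log10 of CPM plus 1. Most genes are high in the Retnla-led, Cd93-led, Vcam1-led, Gm10837-led and Cd4/Ccl8-led states, Cd163 alone stays high in the Ccl12/Il1b-led state, and Timd4 stands out in the Prg4/Alox15-led and cDC1-like states.

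Among states with at least 50 cells in each library, the summed level of the 10 genes was highest in the Retnla-led state, at 11351 CPM in NW and 8720 in ABX. Retnla encodes a secreted protein of alternatively activated macrophages. The Gm10837-led state followed with 11200 and 6526, then the Vcam1-led state with 8770 and 5869, the Cd93-led state with 8679 and 6350, and the Cd4 and Ccl8-led state with 7863 and 5382. In the state led by interferon-induced genes, with fewer cells, it was 10949 and 4575. Over both libraries, Folr2, Fcna, Cd209d, Cd209b and Ednrb had their highest level in the Retnla-led state, and for Fcna, Cd209d and Ednrb the interval overlapped that of the next state. Lyve1 and Cd209f were highest in the state led by interferon-induced genes, whose interval overlapped that of the Retnla-led state, and which rests on 35 cells. The NW cells carried that rank: Lyve1 was at 2190 and Cd209f at 1071 in this state of NW, but at 520 and 138 in that of ABX, below the 1203 and 488 of the Retnla-led state of ABX. Counted over all 10 genes, 9 were highest in a state that carried the macrophage name. Timd4 was highest in the unnamed Prg4 and Alox15-led state, which had 7 of 7 markers of large peritoneal macrophages.

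Cd163 did not share this order. Its level was highest in the Vcam1-led state, at 2368 in NW and 2319 in ABX, and was 1958 and 2003 in the Retnla-led state. In the Ccl12 and Il1b-led state, which had 7 of 7 inflammatory markers, Cd163 was at 1104 in NW and 1290 in ABX. There Fcna was at 94.5 and 62.5, Cd209f at 14.5 and 10.1, and Lyve1 at 367 and 169. Cd163 made up 62.5% of the UMIs of the 10 genes in this state, compared with 19.3% in the Retnla-led state. The level of Cd163 in B cell-like cells was 201 and 126, below its level in the Ccl12 and Il1b-led state.

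The Prg4 and Alox15-led state, of only 32 cells, had another mix. Timd4 had its highest level there, at 448 (328 to 598) in NW and 232 (147 to 348) in ABX. Fcna was at 916 and 1625 and Ednrb at 886 and 868, whereas Folr2 was at 68.2 and 50.5. Fcna and Ednrb together with Timd4 thus made up most of the 661 UMIs of the 10 genes found in these cells, with shares of 38.6%, 26.8% and 10.4%.

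DC and monocyte states were low in most of the 10 genes. B cell-like cells, which should lack them, had a summed level of 790 (753 to 829) in NW and 411 (393 to 430) in ABX, most of the genes in a proportion near that in macrophage-like cells. Lyve1 gave 12.7% of the summed UMIs in B cell-like cells of NW against 15.3% in macrophage-like cells, Folr2 gave 14.7% against 17.8%, and Klkb1 gave 6.10% against 3.12%. The 18 B cell-like cells of NW with a Lyve1 UMI after thinning had macrophage markers at 14915, compared with 2521 in the 379 without one. The summed levels in the cDC1-like state (688 and 449), the cDC2-like state (693 and 488), the mature DC-like state (521 and 460) and the monocyte-like state (305 and 256) were near or below those of B cell-like cells. These sums are treated as background, but 3 genes stood above their own level in B cell-like cells in some DC states, Timd4, Cd209d and, in ABX, Cd163. Cd163 was at 208 (189 to 228) in the cDC2-like and 186 (152 to 226) in the mature DC-like state of ABX, compared with 126 (116 to 137) in B cell-like cells. In NW it was at 168 and 116, compared with 201, and its log2 ratio of ABX over NW was 0.31 (0.13 to 0.50) and 0.69 (0.32 to 1.05) in these states.

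Timd4 was at 105 (98.6 to 112) in the cDC1-like state of NW and at 145 (136 to 155) in that of ABX, compared with 4.17 and 5.25 in B cell-like cells. It gave 15.3% and 32.3% of the summed UMIs of the 10 genes in this state, against 1.01% and 0.943% in macrophage-like cells. After thinning each cell to 1000 UMIs, 8.77% of the cDC1-like cells of the first clustering in NW and 11.6% in ABX had a Timd4 UMI, against 0.504% and 0.725% of B cell-like cells. The cDC1-like cells with a Timd4 UMI carried a summed level of the other 9 genes of 257 (225 to 293) in NW, below the 378 (366 to 391) of those without it, and 214 (184 to 248) in ABX, compared with 201 (190 to 213). Their cDC1 markers were at 5961 with and 5982 without Timd4 in NW, and at 6029 (5863 to 6198) and 5766 (5705 to 5828) in ABX. Macrophage markers were lower with Timd4 in NW, at 1600.1 and 1900.2, and higher in ABX, at 1657 (1570.2 to 1747) and 1416 (1385 to 1446). In contrast to macrophage-like cells, the log2 ratio of ABX over NW for Timd4 in the cDC1-like state was 0.47 (0.33 to 0.60). In the mature DC-like state it was 1.27 (0.56 to 1.97), from 38 UMIs in NW and 35 in ABX.

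Cd209d was at 89.9 (79.8 to 101) in the cDC2-like state of NW and at 38.4 (30.6 to 47.6) in that of ABX, compared with 14.4 and 7.21 in B cell-like cells. Among thinned cDC2-like cells of NW, the 29 with a Cd209d UMI had a summed level of the other 9 genes of 1575, compared with 449 in the 340 without it, and macrophage markers of 4777 against 2379. Their cDC2 markers were at 3590, against 2705 in those without it, while Cd209a, itself among these markers, was alike at 819 and 800. Only 3 such cells were found in ABX. Macrophage and cDC2 markers thus both moved with Cd209d in these cells of NW, and the part of either was not tested.

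Endothelial-like cells, 315 in NW and 483 in ABX, also held many UMIs of the 10 genes, with a summed level of 5747 and 3437. The size of this class depended on the clustering. It was 103 and 203 cells at resolution 1.0, 119 and 252 with RNA only, and 324 and 495 with 50 principal components. At resolution 1.0 a cluster of 225 and 300 cells, with Fabp4 and Klkb1 among its leading genes, stayed unnamed. In the endothelial-like cells of the main clustering, Klkb1 was at 809 (770 to 850) in NW and 753 (721 to 787) in ABX. A Klkb1 UMI was found in 76.2% and 72.0% of these cells, without one of them reaching 50 UMIs. Ednrb, which endothelium is known to carry, was at 619 and 460. Endothelial-like cells with an Ednrb UMI after thinning had more macrophage markers, at 22139 against 16272 without one in NW and at 16935 against 11334 in ABX. They also had more of the other 9 genes, at 6979 against 4357 in NW and at 4702 against 2379 in ABX. Endothelial markers were higher with Ednrb as well, at 1869 against 880 in NW and at 3026 against 2094 in ABX. The part of macrophage RNA in the Ednrb of these cells was not tested. Endothelial-like cells were rich in macrophage markers too. In NW those with a Klkb1 UMI after thinning had macrophage markers at 16557.5, against 18767 in those without it, and a summed level of the other 9 genes of 3989, against 5472. In ABX the order was turned, with 2828 and 2640. Endothelial markers were lower with Klkb1 in both libraries, at 759 against 1385 in NW and at 1989 against 2533 in ABX.

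Within macrophage-like cells, several of the 10 genes occurred in the same cells more often than their single shares would give. The cells were thinned to 1000 UMIs each, since the ABX library was shallower, which left out 91 NW and 152 ABX cells. Each thinned cell then had UMIs of a mean of 3.36 of the 10 genes in NW and 2.60 in ABX. At least 2 of the genes were found in 78.3% (77.2 to 79.4, exact binomial) of NW cells and in 65.9% (64.6 to 67.2) of ABX cells, compared with 92.6% and 82.9% before thinning. In B cell-like cells the thinned shares were 5.79% and 3.52%. At least 5 genes were found in 30.9% of NW and 17.4% of ABX macrophage-like cells, and none in 7.37% and 11.8%.

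Cells with Cd209d and Cd209f together were 1.83 times as frequent in NW, and 2.27 times in ABX, as independent occurrence would give. For Lyve1 with Ednrb these values were 1.48 and 1.74. For Cd163 with Lyve1 they were 1.07 and 1.08, and for Klkb1 with Lyve1 0.843 and 0.792. The highest value such a ratio can take falls as the commoner gene of a pair is found in more cells. Cd163 was found in 3598 thinned NW cells and Cd209f in 1920, so sizes are not compared between pairs or libraries. Over cells, the thinned UMIs of Folr2 and Fcna had a Pearson correlation of 0.41 in 5697 NW cells and 0.40 in 4880 ABX cells, which share library and depth, and those of Klkb1 with any other gene lay between -0.03 and 0.03. Klkb1 was therefore set apart from the other 9 at the level of single cells.

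**Figure D3:**
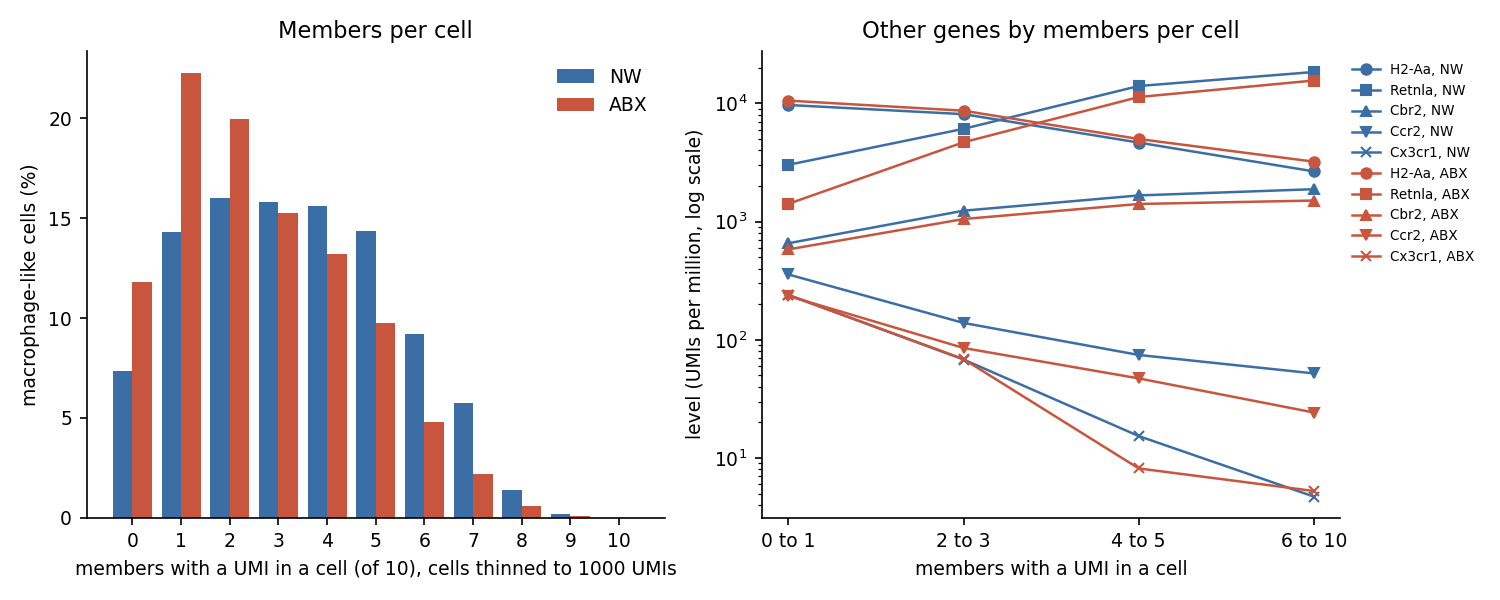
Left, share of macrophage-like cells (%) by how many of the 10 genes had a UMI after thinning to 1000 UMIs, in NW (blue) and ABX (red). Right, level of 5 genes outside the 10 (CPM, log scale) in cells grouped by that number, with Retnla and Cbr2 higher and H2-Aa, Ccr2 and Cx3cr1 lower in cells with more of the 10 genes.

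When macrophage-like cells were grouped by how many of the 10 genes they held after thinning, other genes followed in both libraries. Retnla was at 3022 CPM in NW cells with at most 1 of the genes and at 18455 in those with 6 or more, and at 1413 and 15629 in ABX. Cbr2, a carbonyl reductase of resident macrophages, was at 656 and 1881 in NW and at 582 and 1507 in ABX. Vsig4, a complement receptor, was at 10.9 and 112 in NW and at 9.74 and 152 in ABX. Not every gene of the resident macrophage list followed. Id3, a transcriptional regulator, was at 25.6 and 7.24 in NW and at 29.8 and 9.29 in ABX. Hpgd was at 111 and 117 in NW, Mef2c at 324 and 316, and Spic at 28.1 and 20.2, while Spic was at 32.2 and 33.5 in ABX.

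An order opposite to that of Retnla was found for genes of recruited or antigen-presenting macrophages. H2-Aa, an MHC class II chain, was at 9703 in NW cells with at most 1 of the genes and at 2659 in those with 6 or more, and at 10564 and 3214 in ABX. Ccr2, the receptor by which monocytes are recruited, was at 357 and 51.9 in NW and at 235 and 24.2 in ABX. Cx3cr1 was at 240 and 4.71 in NW and at 239 and 5.25 in ABX, and Il1b at 339 and 8.81 in NW and at 327 and 6.87 in ABX. Stab1, another scavenger receptor, differed little, with 1103 and 1109 in NW and 1238 and 1031 in ABX. The cells with 6 or more of the genes were also deeper before thinning, their median depth being 8559 UMIs in NW and 6534 in ABX, compared with 4152 and 3309 in those with at most 1, and the part of depth in these orders was not tested. The median count of the antibody to CD44, itself a hyaluronan receptor, was 65 and 53 in NW and 56 and 52.5 in ABX.

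Taken gene by gene, the relation to MHC class II differed. The log2 ratio of H2-Aa in cells with a Lyve1 UMI over cells without it was -1.08 in NW and -0.95 in ABX. For Ednrb it was -1.05 and -0.92, and for Fcna -0.99 and -0.81. For Cd163 it was only -0.20 and -0.08, and for Klkb1 0.12 and 0.01. Cells with Cd163 or Klkb1 were thus close to cells without them in H2-Aa, while cells with Lyve1, Ednrb or Fcna had less. Depth before thinning differed too. In NW the median was 7065 UMIs with and 4625 without Lyve1, 7496 and 4896 for Ednrb, and 6730.5 and 4772 for Fcna. It was 5938 and 5400 for Cd163, and 4054 and 5846 for Klkb1. The part of depth in these ratios was not tested.

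The lower levels in ABX were then examined within each state. Lyve1 was lower in ABX in 6 of 6 macrophage-like states with at least 50 cells in each library, with log2 ratios between -1.12 and -0.66 and every interval below 0. Folr2 was lower in 6 of 6, between -0.92 and -0.52. Cd209f was lower in 5 of 5 states in which it had at least 20 UMIs, between -1.42 and -0.99, and past 1.5-fold in each. Cd209d was lower in 5 of 5, between -0.91 and -0.52, and Cd209b in 5 of 5, between -0.83 and -0.29. Cd163 lay between -0.12 and 0.22, with 1 interval below 0 and 2 above it.

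**Figure D4:**
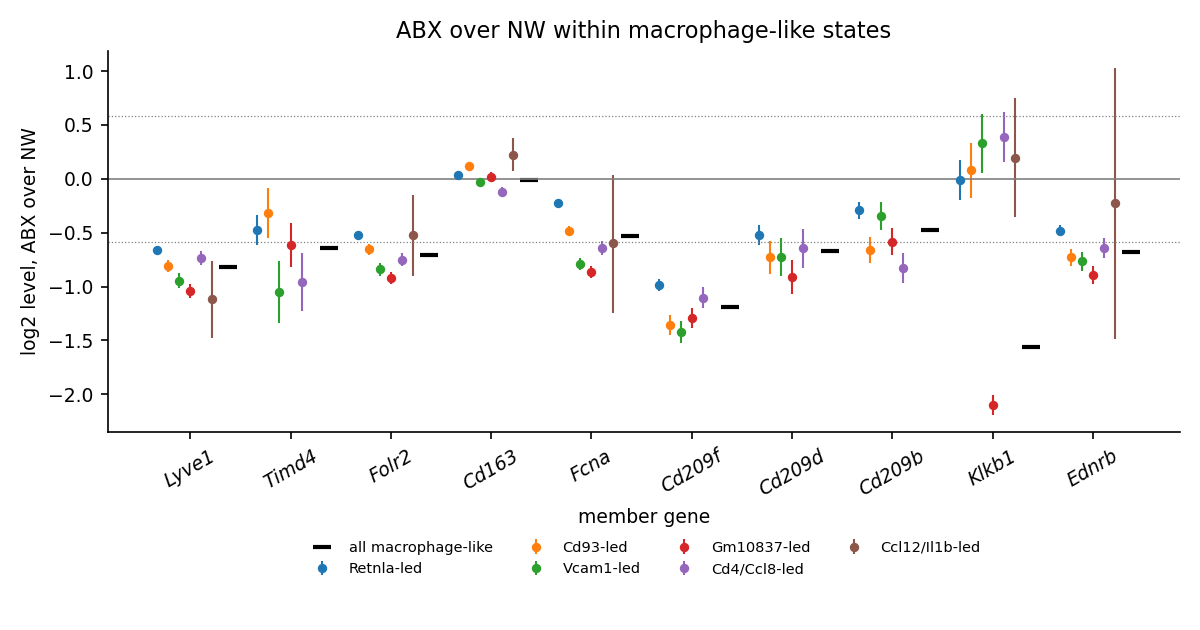
Log2 ratio of ABX over NW (y axis) for each of the 10 genes in 6 macrophage-like states (coloured points with exact 95% counting intervals) and in all macrophage-like cells (black dashes); dotted lines mark 1.5-fold. Cd163 lies near 0 in each state, Klkb1 is far below 0 only in the Gm10837-led state, and the points of Lyve1, Folr2, Fcna, Cd209f, Cd209d, Cd209b, Timd4 and Ednrb lie below 0.

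The size of the difference was not the same in each state. The summed level had a log2 ratio of -0.38 (-0.40 to -0.37) in the Retnla-led state, -0.45 (-0.47 to -0.43) in the Cd93-led state and -0.58 (-0.60 to -0.56) in the Vcam1-led state. In the Cd4 and Ccl8-led state it was -0.55 (-0.57 to -0.52), and in the Ccl12 and Il1b-led state -0.09 (-0.21 to 0.04). The Gm10837-led state had the largest value, -0.78 (-0.80 to -0.76), and -0.67 (-0.69 to -0.65) when Klkb1 was left out of the sum. For Fcna the ratio was -0.22 (-0.25 to -0.19) in the Retnla-led state and -0.87 (-0.92 to -0.81) in the Gm10837-led state, from 2427 and 2081 in the former and 2071 and 1137 in the latter.

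Of the 10 genes, 2 were at least 1.5-fold lower in the Retnla-led state, where 1.54% of all genes were. In the Cd93-led state 6 were, against 2.07% of all genes, and in the Vcam1-led state 7 were, against 2.29%. In the Gm10837-led and the Cd4 and Ccl8-led states 8 were, against 2.1% and 1.85%. In the Ccl12 and Il1b-led state 4 genes had at least 100 UMIs and 1 was at least 1.5-fold lower, against 2.37% of all genes. None of the 10 was at least 1.5-fold higher in any of these states, where the shares of all genes that were came to 2.07%, 2.3%, 2.14%, 4.06%, 1.98% and 1.92% in the same order. In all cells of the libraries taken at once, 8 were lower and none higher, against 2.1% and 10.8% of all genes.

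The mix of states differed little between the libraries. The Retnla-led state took 21.3% of macrophage-like cells in NW and 24.0% in ABX, and the Gm10837-led state 19.2% and 15.3%. With the states of ABX weighted by their share of UMIs in NW, the summed level in ABX was 6621 CPM, compared with 6613 with its own mix and 9639 in NW over these states. The log2 ratio of the sum was thus -0.54 with either mix.

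The sum of the 10 genes was also lower in ABX in lymphoid cells, where it is treated as background. The log2 ratio of their sum was -0.94 (-1.04 to -0.85) in B cell-like cells, -0.90 (-0.95 to -0.84) in T cell-like cells and -0.70 (-0.78 to -0.62) in ILC2-like cells. In the Itgax-led state, in which 25.7% of cells were macrophage-like and the sum lay above that of B cell-like cells, it was -0.87 (-0.93 to -0.81), from 2781 in NW and 1521 in ABX. In macrophage-like cells, the summed level of 6 B cell markers was 39.9 in NW and 119 in ABX, that of 6 fibroblast markers 50.7 and 149, and that of 6 plasma cell markers 351 and 453, with no listed marker at 0 in both libraries. Other lists were lower in ABX in the same cells. The summed level of 7 large peritoneal macrophage markers was 34.9 and 14.8, that of 12 monocyte markers 456 and 301, and that of 6 mast cell markers 18.6 and 7.42. These moved with the condition, and their part in the levels of the 10 genes was not tested.

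Klkb1, which encodes plasma prekallikrein, a protease made mainly by the liver, had a level of 300.2 in macrophage-like cells of NW and 102 in those of ABX, a log2 ratio of -1.56 (-1.62 to -1.49). This difference rested on few cells. In NW, 17 of 5788 cells had at least 50 Klkb1 UMIs and held 8087 of 10706 UMIs, or 75.5%, and in ABX 1 of 5032 cells held 364 of 2306 UMIs, or 15.8%. The cell with the most held 1704. In the NW cells of this kind Klkb1 made up a median of 25.6% of all UMIs, and all 18 cells fell in the Gm10837-led state, although Klkb1 had been kept out of the clustering. Their median UMI count was 1802.5, and the other 9 genes had a summed level of 6443 in them, compared with 8243 in the remaining macrophage-like cells.

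Without these 18 cells, Klkb1 was at 73.6 (70.8 to 76.4) in NW and 85.8 (82.1 to 89.7) in ABX, and the log2 ratio turned to 0.22 (0.14 to 0.31). The number of genes at least 1.5-fold lower then was 6 of 10, and the log2 ratio of the sum was -0.51 (-0.52 to -0.50). This limit of 50 UMIs was set after the values were seen. For the other 9 genes, leaving out cells with many UMIs was not tried. Cells with at least 50 UMIs of Fcna held 28.1% of its UMIs in NW and 11.97% in ABX, and those with at least 50 of Lyve1 held 18.0% and 3.47%. For Lyve1, 616 cells in NW and 408 in ABX held 50% of the UMIs, and for Timd4, 267 and 164, whereas for Klkb1 7 cells in NW and 171 in ABX did. Outside the Gm10837-led state, Klkb1 lay between 43.9 and 108 in macrophage-like states with at least 50 cells in each library, and between 38.5 and 48.2 in B cell-like cells. Klkb1 shares 42.7% of its 50-base stretches with other genes, above all Gm45753, which overlaps it on the same strand and had 1 UMI in NW and 0 in ABX, but none in its last 500 bases.

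**Figure D5:**
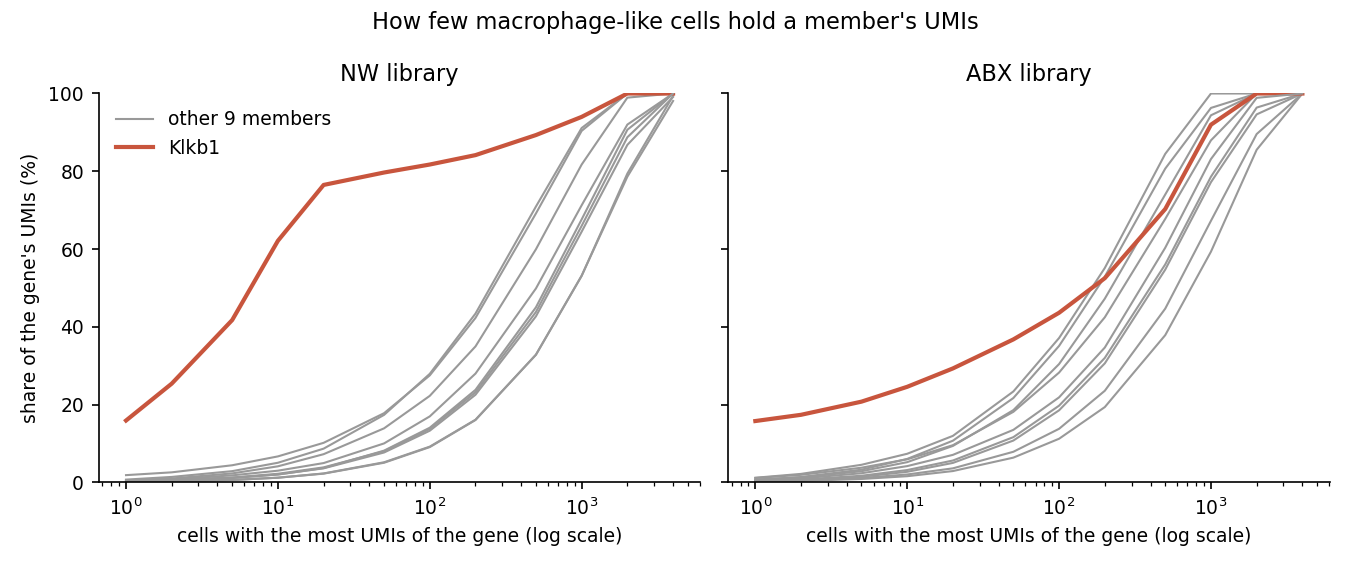
Share of a gene's UMIs in macrophage-like cells (y axis, %) held by the cells with the most UMIs of that gene (x axis, number of cells, log scale), in NW (left) and ABX (right), for Klkb1 (red) and the other 9 genes (grey). In NW the 20 cells with the most hold 76.5% of the Klkb1 UMIs, and 20 cells hold at most 10.2% for each of the other genes.

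Genes outside the 10 were compared with them by their pattern over the 15 states, as Pearson correlation of log2(CPM + 1) among 10909 genes with at least 200 UMIs. These correlations describe likeness over 15 points that share libraries, and say nothing of shared control. The genes most like the sum were Pkp4, a plakophilin of cell junctions (r = 0.98), Cd38, an enzyme that consumes NAD (0.98), Tmem37 (0.98), Pmp22 (0.98) and Colec12, a scavenger receptor with a collectin domain (0.97). Igf1 was most like Lyve1 (0.98), the iron exporter gene Slc40a1 most like Folr2 (0.99), and Cbr2 most like Cd163 (0.99). A4galt (0.99) and Retnla (0.98) were most like Cd209f, Tns1 (0.98) most like Cd209b, and Dnm1 (0.99) most like Ednrb. The lectin gene Clec10a (0.96) and Cd209g (0.95) were most like Cd209d. The closest to Fcna was Epb41l1 (0.97), and to Timd4 it was Tmem80 (0.91). Hbb-bs, a haemoglobin chain with 335 UMIs in all, was closest to Klkb1 (0.85).

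Genes with a like pattern over states varied in their difference between the libraries. Cd38 was at 335 in NW and 373 in ABX macrophage-like cells, a log2 ratio of 0.16, and Pmp22 at 530 and 533, a log2 ratio of 0.01. Retnla was at 11080.2 and 6709, a log2 ratio of -0.72, and Colec12 at 116 and 80.4, a log2 ratio of -0.53. Slc40a1 was at 244 and 269, a log2 ratio of 0.14. Among the others named here, Epb41l1 had a log2 ratio of -0.52, Cbr2 of -0.43, Igf1 of -0.25, Tns1 of -0.17 and Clec10a of -0.10.

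Lists of related genes give the surroundings of the 10. Of 14 other scavenger receptors with at least 100 UMIs in macrophage-like cells, 1 was at least 1.5-fold lower in ABX, Marco, at 4.68 in NW and 2.25 in ABX, and none was higher, with a median log2 ratio of -0.11. Mrc1, the mannose receptor, was at 1816 and 1630, and Cd36, a receptor for oxidised lipids, at 4835 and 4506. Of 25 other lectins, 1 was lower, Cd209g, and 1 higher, Clec4n, which encodes dectin-2, at 50.7 and 84.4, with a median of -0.12. Of 20 other genes of resident macrophages none passed 1.5-fold, with a median of -0.13, and F13a1, coagulation factor XIII, was at 2439 and 1859.

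Of 10 genes of recruited or antigen-presenting macrophages, 1 was at least 1.5-fold higher in ABX, Ly6c2, at 21.7 and 39.9, with a median of 0.30. Ly6c2 was also the first leading gene of the state named as NK or ILC1-like, where 79 of 139 cells counted as macrophage-like. In macrophage-like cells, 6 T cell markers summed to 54.0 and 89.9, and 6 NK or ILC1 markers to 14.8 and 25.2. Their part in the level of Ly6c2 was not tested. H2-Aa was at 5967 and 7633 and Cx3cr1 at 64.6 and 95.6, log2 ratios of 0.36 and 0.57. Ccr2 was at 134 and 113, a log2 ratio of -0.25. MHC class II genes and Cx3cr1 were therefore higher in ABX and Ccr2 lower, all within 1.5-fold.

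Each receptor was also set beside the genes of its own pathway. Around Lyve1, Cd44 was at 145 and 114, a log2 ratio of -0.35, and of 5 hyaluronan genes measured only Hmmr, which is also a gene of dividing cells, passed 1.5-fold, higher in ABX with 39 and 110 UMIs. Around Timd4, none of 7 genes of phosphatidylserine uptake passed, with a median of 0.30. The receptors Mertk (156 and 191) and Axl (161 and 207) were higher in ABX, while the ligand genes Gas6 (576 and 451) and Pros1 (177 and 123) were lower. Around Folr2, none of 5 folate genes passed, with a median of 0.07. Around Cd163, Hp, which encodes haptoglobin, was the only one of 7 to pass, at 4.43 and 2.78, and Hmox1, which degrades haem, was at 794 and 639.

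Around Fcna, C3 was the only one of 3 measured complement genes to pass 1.5-fold, higher in ABX at 16.2 and 26.5, and C4b was at 824 and 677. The proteases that ficolins activate, Masp1 and Masp2, had 9 and 5 UMIs in NW and 7 and 1 in ABX. Around Ednrb, 1 gene was measured, Ece1, which processes endothelins, from 485 UMIs of NW and 249 of ABX, and the ligand gene Edn1 had 0 UMIs in NW and 11 in ABX. Around Klkb1, Serping1, which encodes the C1 inhibitor that also blocks kallikrein, was the only gene with at least 100 UMIs, at 10.8 in NW and 34.7 in ABX, a log2 ratio of 1.68. Serping1 was also a leading gene of the fibroblast-like cluster, as was C3 when clusters were made from RNA only. The fibroblast markers in macrophage-like cells, at 50.7 and 149, moved with both genes, and their part in these levels was not tested. The kininogen genes Kng1 and Kng2 and the activator F12 had at most 5 UMIs in either library.

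Genes that respond to the dissociation of tissue differed less than the 10. Of 10 such genes 1 passed 1.5-fold, Egr1, lower in ABX at 1283 and 827, with a median of -0.16. Fos was at 2772 and 2566 and Hspa1a at 2850 and 3076. Their part in the levels of the 10 genes was not tested.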

How the data were processed

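CD45+ cells of VAT from mice given normal water or antibiotics were profiled as 1 library each, and samples were grouped by their labels. The deposited files hold UMI counts per cell barcode and gene, whole numbers that the authors made with the BD Rhapsody pipeline (version 1.8 per the file headers) on mm10, with 10 antibody columns and no normalization.

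Barcodes were kept with at least 500 gene UMIs, at least 200 genes and at most 25% mitochondrial UMIs. Cells of both libraries were clustered in Seurat 5.3.0 (R 4.3.3) on weighted nearest neighbours of RNA (2000 variable genes without the 10 members, 30 principal components) and 8 antibodies, by the Louvain method at resolution 0.6, without integration. A cluster was named from at least 3 markers of a class, 1.5-fold higher than in other cells. Myeloid clusters were clustered again into states; 1 further state, named as NK or ILC1-like, and states under 20 cells were left out. Predicted doublets stayed in the main values. Scrublet (scanpy 1.11.5) marked 2.76% of NW cells by its own threshold, but 0.00786% of ABX cells, where the highest scores were used instead.

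UMIs were summed over cells and given as CPM, per 1000000 UMIs of the same cells, with exact Poisson intervals, ratios with exact conditional intervals in groups of at least 50 cells per library and at least 20 UMIs, and shares with exact binomial intervals, all 95% and all for counting error only. No p-value was computed, since each condition is 1 library. Genes past a fixed fold of 1.5 were counted among those with at least 100 UMIs, as a description of these libraries. Cells were thinned to 1000 UMIs by a seeded hypergeometric draw. The members, gene lists and rules were chosen with earlier results of these data known. The text names the 10 members, from each list the genes at least 1.5-fold apart (4 at most), 4 leading genes per state at most, the 5 genes most like the sum and at most 2 most like each member; any further gene was picked with its values already known. Coordinates and overlaps are from GENCODE M21 (GRCm38), and promoter sequences from RefSeq.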

Additional observations from a re-analysis of the deposited data

How the results depend on the processing

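The summed level of the 10 genes in macrophage-like cells was lower in ABX under each alternative. Its log2 ratio, -0.54, was -0.52 without predicted doublets, -0.50 with at most 10% mitochondrial UMIs, -0.53 with RNA only, -0.56 with 50 principal components, -0.62 with median-of-ratios and -0.62 with TMM scaling, -0.60 as a mean over cells, and -0.51 without the cells of at least 50 Klkb1 UMIs, a setting chosen after seeing the data. Without those cells Klkb1 alone turned, to 0.22. Cd163 stayed near 0, between -0.09 and 0.01 over all alternatives. The number of genes at least 1.5-fold lower, 7, lay between 6 and 8 under all alternatives. The log2 ratio of the share of cells with at least 2 of the genes, -0.25, was -0.16 after thinning to 2000 UMIs and -0.21 with at most 10% mitochondrial UMIs. The share of all genes at least 1.5-fold lower, 1.56%, was 4.08% among genes with at least 10 UMIs and 14.2% among those with at least 1. The cause was not tested. Pairs of state and gene with at least 20 UMIs numbered 95, in 10 states that include the DC and Itgax-led states. Of these pairs, 57 were at least 1.5-fold lower, compared with 57 after median-of-ratios scaling and 59 without predicted doublets. The share of all genes past 1.5-fold was not computed for the DC and Itgax-led states, and the DC sums are treated as background. These counts therefore only describe the pairs. Of the 10 genes, 9 were highest in a state that carried the macrophage name, also in NW alone, and 8 in ABX alone. In ABX alone, Timd4 and Ednrb were highest in the unnamed Prg4 and Alox15-led state. No paired analysis was possible because each condition is 1 library. For states with fewer than 50 cells in either library no ratio is given, because of their few cells.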
